A study of Mus musculus with 10 samples.

Results

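The genes described here encode the proteins of the cytosolic ribosome. They were 50 genes chosen by symbol, 29 of the body of the large subunit, 3 of its stalk and 18 of the small subunit, out of 16667 genes in the table of normalized counts. All 50 were found and all 50 passed the filter for testing, a mean of at least 10 normalized counts, along with 14203 genes in all. RNA was sequenced from the visceral fat (titles ending in gwat) of 10 mice of strain C57BL/6, genotype wild type and age 10 weeks, 5 of which had sham surgery and 5 of which received orthotopic KPC tumours. KPC tumours come from a genetic mouse model of pancreatic cancer and were grown here in the pancreas itself. The sources used here do not give the tumour line, the sex of the mice or the days between surgery and tissue collection, and the labels name no batch.

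A ribosome is built from a large and a small subunit, each made of ribosomal RNA and a set of proteins present in about equal numbers. The transcripts of these proteins are among the most abundant in every cell, and many start with a C followed by a run of pyrimidines, the terminal oligopyrimidine (TOP) tract. Through that tract the kinase complex mTORC1, which is switched on by nutrients and growth factors, sets how much of the message is translated. Fat cells, stromal cells and immune cells of fat all make these transcripts.

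One library stood apart from the other 9. In KPC mouse 1 the 13 mitochondrially encoded genes took 15.7% of all listed TPM (the length-corrected share of all transcripts), against 26.3% to 33.3% in the other mice, and every one of the 50 members was at its highest there. This mouse had the highest value of 28.6% of all tested genes, so the main results are given with and without it. Sham mouse 1 was the opposite end for most members, with the lowest value of 46 of the 50, against 1786 of all 14203 tested genes. The totals of normalized counts were from 20941200 (KPC mouse 1) to 24449900 (sham mouse 1) per mouse, and the lowest value of any member in any mouse was 430 normalized counts. The 12 adipocyte markers summed to 39959 to 48849 TPM per mouse. Of 6 genes of epididymis and testis, which lie beside this fat in male mice, 4 were listed at 0 in all mice. As the sex of the mice was not given, this does not show how cleanly the fat was dissected.

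Start sites were read for the 40 members that had an entry in the RefSeq promoter table (mouse build GRCm38.p6), with 48 start sites among them. The windows below run 5′ to 3′ from 15 bases before the annotated start through the first 15 bases of the transcript, which lie in the first exon, and capitals mark a run of at least 8 C or T bases that touches the 5 bases on either side of the start. The first 5 genes carry the run and include members with the largest and among the smallest differences between groups. The last 3 carry none, and their groups did not overlap, as was also so for Rplp2, Rps6, Rps24 and Rpl34. The groups did not overlap in 7 of the 15 members with the run and in 9 of the 25 with an entry but no run. Of all tested genes, 2.75% were higher in KPC mice without overlap.
Rplp2, chr7:141447636-141447665, plus strand: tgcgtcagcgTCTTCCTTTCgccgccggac
Rps6, chr4:86857353-86857382, minus strand: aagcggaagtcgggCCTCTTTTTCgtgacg
Rps24, first of its 2 listed starts, chr14:24490663-24490692, plus strand: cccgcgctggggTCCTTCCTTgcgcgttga
Rpl34, first of its 2 listed starts, chr3:130730323-130730352, minus strand: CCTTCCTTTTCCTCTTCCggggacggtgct
Rpl4, chr9:64173372-64173401, plus strand: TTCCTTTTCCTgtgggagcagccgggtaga
Rps15, chr10:80292416-80292445, plus strand: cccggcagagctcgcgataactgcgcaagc
Rpl37, chr15:5116598-5116627, plus strand: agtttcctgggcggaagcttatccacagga
Rps28, chr17:33824548-33824577, minus strand: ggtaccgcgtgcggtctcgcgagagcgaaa
The run was found at 15 of the 48 member starts (31.2%), at 8 of 20 starts of the other cytosolic ribosomal proteins (40%), at 7 of 75 starts of the mitochondrial ones (9.33%) and at 9.38% of all 32851 starts. Annotated starts can lie some bases from the one used, so a window without the run says only that these letters are absent from it. In turn, a counted run need not lie in the transcript. That of Rpl4 ends before the annotated start, so none of it is in the annotated transcript. The runs of Rpl4 and Rpl34 reach upstream past the window shown and are 14 and 20 bases long.

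Other motifs were searched by letters on both strands of the whole 300 bases of each entry, 250 before and 50 after the start, and matches of different motifs can share bases. The core of the ETS family site, CCGGAAG, was in 17 of 48 member entries (35.4%) and in 8.86% of all entries. It was in 40% of entries of the other cytosolic ribosomal proteins and in 34.7% of the mitochondrial ones. The core of the YY1 site, AANATGGC, was in 8 (16.7%) against 6.05% of all, with 40% and 28% in those lists. The GC box GGGCGG was in 27 (56.2%) against 35.7%, with 75% and 52% in them. TATAAA was in 4 (8.33%) against 13.6%, with 10% and 6.67% in them. None of these motifs was thus particular to the members. These are descriptions of the letters and not of bound factors. The 15 members with the pyrimidine run had log2 differences between groups from 0.20 to 0.57 with a median of 0.38, and the 25 members with an entry but no run had 0.18 to 0.54 with a median of 0.39, so the ranges largely coincided.

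Levels differed widely between members. The median member stood at 714 TPM over the 10 mice, 36 members had a mean of at least 500 TPM and 15 of at least 1000 TPM. Rplp1, an acidic protein of the stalk, was the most abundant at 3051 TPM, followed by the small subunit proteins Rps14 at 1864 TPM, Rps15 at 1667 TPM, Rps18 at 1500.2 TPM and Rps24 at 1495 TPM. The least abundant were Rps25 at 26.5 TPM, Rpl5 at 28.4 TPM, Rpl12 at 73.9 TPM, Rpl37 at 158 TPM and Rps20 at 272 TPM, and the near copies that take much of the signal of some of these are described further on.

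All 50 members had a higher mean in KPC mice than in sham mice, against 46.9% of all tested genes, but no single member passed the test. The log2 difference of normalized counts, KPC minus sham, had a median of 0.38 over the members, with a range from 0.18 for Rps2 to 0.57 for Rpl34, while the median over all tested genes was -0.02. In bulk tissue, a change in the number of cells of a type and a change in the RNA of each cell cannot be told apart. Without KPC mouse 1 the members' median was 0.21, with a range from 0.03 to 0.34 and 50 of 50 still above 0. The difference was thus smaller but kept its direction on average over the other 4 tumour mice.

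With limma and Benjamini-Hochberg adjustment over all tested genes, 0 of 50 members were called at 0.05, whereas 0.0563% of all tested genes were (0.0493% higher and 0.00704% lower). The adjusted p ran from 0.268 for Rplp2 to 0.655 for Rps2. At an unadjusted p under 0.05, 28 of 50 members were higher and 0 lower, where the background was 7.61% higher and 5.91% lower. That count was 29 without KPC mouse 1, with 7.14% of all genes as background, but it was 6 without sham mouse 1 (background 6.56%), 10 without sham mouse 4 (5.53%), 14 without sham mouse 2 (6.11%) and 16 when either sham mouse 3 (6.15%) or KPC mouse 2 (7.56%) was left out. The count was 15 on the TPM scale, where the background was 5.92%. Calls over all genes were as dependent on single mice. There were 8 in all, 7 higher and 1 lower, and 71 without KPC mouse 1, 14 without KPC mouse 2, 5 without KPC mouse 5, 4 without sham mouse 5, 3 without each of sham mice 1, 2 and 3, and 2 without KPC mouse 4 or sham mouse 4. No member was among them in any of these fits. Without KPC mouse 1 the members' adjusted p ran from 0.133 for Rps24 to 0.9302 for Rps2, with 0.474% of all genes called higher.

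In 17 of 50 members every KPC mouse was above every sham mouse on normalized counts, where 2.75% of all tested genes were. These were Rpl11, Rpl14, Rpl18, Rpl22, Rpl23, Rpl26, Rpl30, Rpl34, Rpl37 and Rplp2 of the large subunit and Rps6, Rps9, Rps13, Rps15, Rps23, Rps24 and Rps28 of the small subunit. The count depends on scaling, since on TPM 2 members, Rps13 and Rps24, were without overlap, where the background was 2.11%, and after quantile normalization 30 were, where it was 3.1%. It was 37 without sham mouse 5, the sham mouse with the highest member levels (background 4.49%), and 17 without KPC mouse 1 (background 3.1%).

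**Figure D1:**
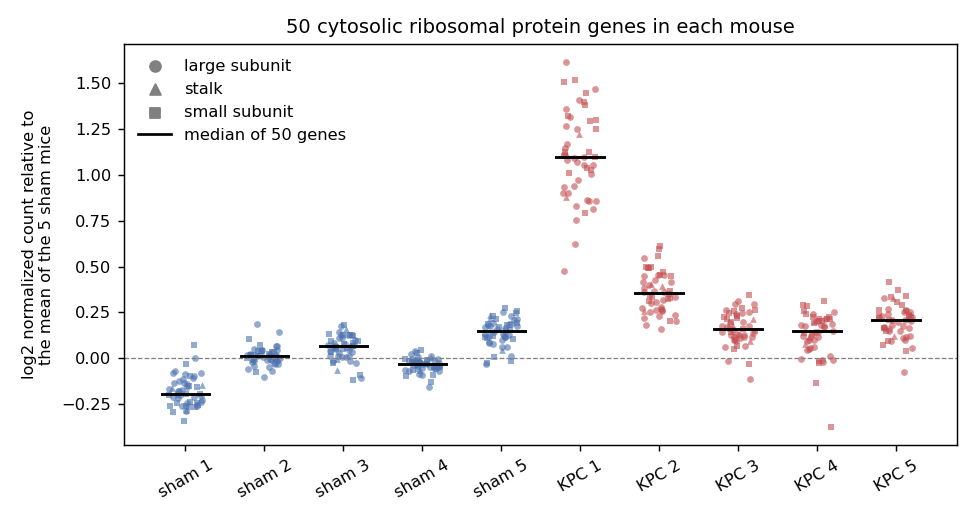
Log2 normalized count of each of the 50 members relative to its mean in the 5 sham mice (y axis) in each of the 10 mice (x axis); symbols give the part of the ribosome and black lines the median of the 50. KPC mouse 1 lies at a median of 1.10, and the other KPC mice lie between 0.15 and 0.35.

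The level of the members differed from mouse to mouse. Averaged over the 50, the log2 level relative to the sham mean was -0.18, 0.01, 0.06, -0.03 and 0.14 in sham mice 1 to 5. It was 1.10, 0.36, 0.16, 0.13 and 0.20 in KPC mice 1 to 5. KPC mice 1, 2, 3 and 5 were therefore above all sham mice, and KPC mouse 4 lay just under sham mouse 5. The median SD of a member over the 10 mice was 0.36 on the log2 scale, against 0.29 for all tested genes. When the mean of the 50 in each mouse was removed, that median SD was 0.084, and 30 of 50 members were under 0.1. Without KPC mouse 1 the median SD was 0.17 and, with the mean removed, 0.067. With the mean of their own list removed in the same way, the median SD went from 0.20 to 0.14 for mitochondrial ribosomal proteins, from 0.16 to 0.14 for the other translation factors and from 0.38 to 0.14 for the other cytosolic ribosomal proteins. Over all tested genes it was 0.29 both before and after. The 6 members that kept an SD of at least 0.15 were Rps24, Rpl29, Rpl34, Rpl12, Rpl4 and Rps25. Among them Rpl4 and Rpl29 stood least high in KPC mouse 1, at 0.48 and 0.62, and Rpl34 and Rps24 most, at 1.61 and 1.52.

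As a share of all listed TPM, the 50 members together took 2.94%, 3.76%, 4.19%, 3.85% and 4.38% in sham mice 1 to 5 and 7.92%, 4.67%, 4.02%, 4.49% and 4.43% in KPC mice 1 to 5. KPC mouse 3 was below 2 sham mice, so the groups overlapped on this scale. The means were 3.83% ± 0.556 (SD, n = 5) in sham mice and 5.11% ± 1.59 (SD, n = 5) in KPC mice, and 4.40% ± 0.273 (SD, n = 4) without KPC mouse 1. The difference of 1.28 percentage points was thus 0.578 without that mouse. With the mitochondrially encoded genes left out of the total, the share was 5.41% ± 0.608 (SD, n = 5) in sham mice and 6.83% ± 1.45 (SD, n = 5) in KPC mice, of which KPC mouse 1 had 9.40% and the other 4 had 5.92% to 6.48%. These TPM are shares of one pool, so a member can be higher where other transcripts are lower.

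The stalk proteins recruit the GTPases that drive each step of translation. Rplp2, which pairs with Rplp1 on the stalk, had 6639, 7538, 8310, 7102 and 7659 normalized counts in sham mice 1 to 5 and 13668, 9776, 8606, 8560 and 9341 in KPC mice 1 to 5. The groups did not overlap, and the closest mice were sham mouse 3 and KPC mouse 4. Its level was 938 ± 131 TPM in the sham group and 1218 ± 221 TPM in the KPC group (SD, n = 5), and the log2 difference in limma was 0.40 (SE 0.13, adjusted p = 0.268), or 0.29 without KPC mouse 1 (adjusted p = 0.196). Rplp1 was at 2600 ± 454 TPM in the sham group and 3501 ± 1174 TPM in the KPC group (SD, n = 5), a log2 difference of 0.43 with overlapping groups (limma adjusted p = 0.386), or 0.23 without KPC mouse 1. Rplp0, the base that anchors both to the large subunit, had 16964 to 21905 normalized counts in sham mice and 19857 to 40503 in KPC mice, with sham mouse 5 above KPC mice 3, 4 and 5 (log2 difference 0.33, limma adjusted p = 0.474, or 0.14 without KPC mouse 1).

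In the large subunit, all 29 members were above 0, with a median log2 difference of 0.36 and 0.19 without KPC mouse 1. Rpl37 had 1286, 1651, 1480, 1403 and 1696 normalized counts in sham mice 1 to 5 and 3194, 1998, 1836, 1769 and 1754 in KPC mice 1 to 5. Its groups were separate by a small margin, between sham mouse 5 and KPC mouse 5, and the log2 difference was 0.46 (SE 0.16, limma adjusted p = 0.286). Rpl34, with the largest difference of the 50, had 4374, 4524, 4792, 4535 and 5358 normalized counts in sham mice 1 to 5 and 14385, 6862, 5768, 5420 and 5450 in KPC mice 1 to 5. KPC mouse 1 was more than any other mouse by a wide margin, and KPC mice 4 and 5 were only just above sham mouse 5. The log2 difference of 0.57 (SE 0.24, limma adjusted p = 0.334) was 0.31 without KPC mouse 1. Rpl22, which also binds viral and cellular RNAs, was at 565 ± 92.3 TPM in the sham group and 794 ± 260 TPM in the KPC group (SD, n = 5), a log2 difference of 0.49 (limma adjusted p = 0.308). Rpl26, at the exit of the peptide tunnel, differed by 0.43 (limma adjusted p = 0.309), from 1075 ± 156 to 1442 ± 387 TPM (SD, n = 5). The differences of Rpl37, Rpl22 and Rpl26 were 0.30, 0.30 and 0.27 without KPC mouse 1.

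Rpl5 and Rpl11 join the 5S RNA in a particle that also binds Mdm2, the ubiquitin ligase of p53, when ribosome assembly fails. Rpl11 had 7025 to 8349 normalized counts in sham mice and 8642, 8818, 8900, 10259 and 16533 in KPC mice in ascending order. The groups did not overlap, and the log2 difference was 0.39 (SE 0.17, limma adjusted p = 0.354). Rpl5 was low in both groups, at 25.2 ± 2.28 TPM in the sham group and 31.7 ± 8.26 TPM in the KPC group (SD, n = 5), with a log2 difference of 0.34 (limma adjusted p = 0.386). With KPC mouse 1 left out, Rpl11 differed by 0.21 and Rpl5 by 0.18. The smallest differences of the large subunit were those of Rpl4, which lines the peptide tunnel, at 0.20 (SE 0.12, limma adjusted p = 0.464), of Rpl29 at 0.21 (limma adjusted p = 0.448) and of Rpl24, which bridges the subunits, at 0.26 (limma adjusted p = 0.459). They were 0.14, 0.11 and 0.11 without KPC mouse 1. For Rpl4 the sham mice had 12476 to 16449 normalized counts and the KPC mice 15935 to 20476, and sham mouse 5 was above KPC mice 3, 4 and 5. Rpl12, at the base of the stalk, had 600, 791, 729, 690 and 679 normalized counts in sham mice 1 to 5 and 1847, 933, 642, 690 and 660 in KPC mice 1 to 5. Only KPC mice 1 and 2 were above the sham range, and its log2 difference of 0.33 (limma adjusted p = 0.594) was 0.06 without KPC mouse 1.

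**Figure D2:**
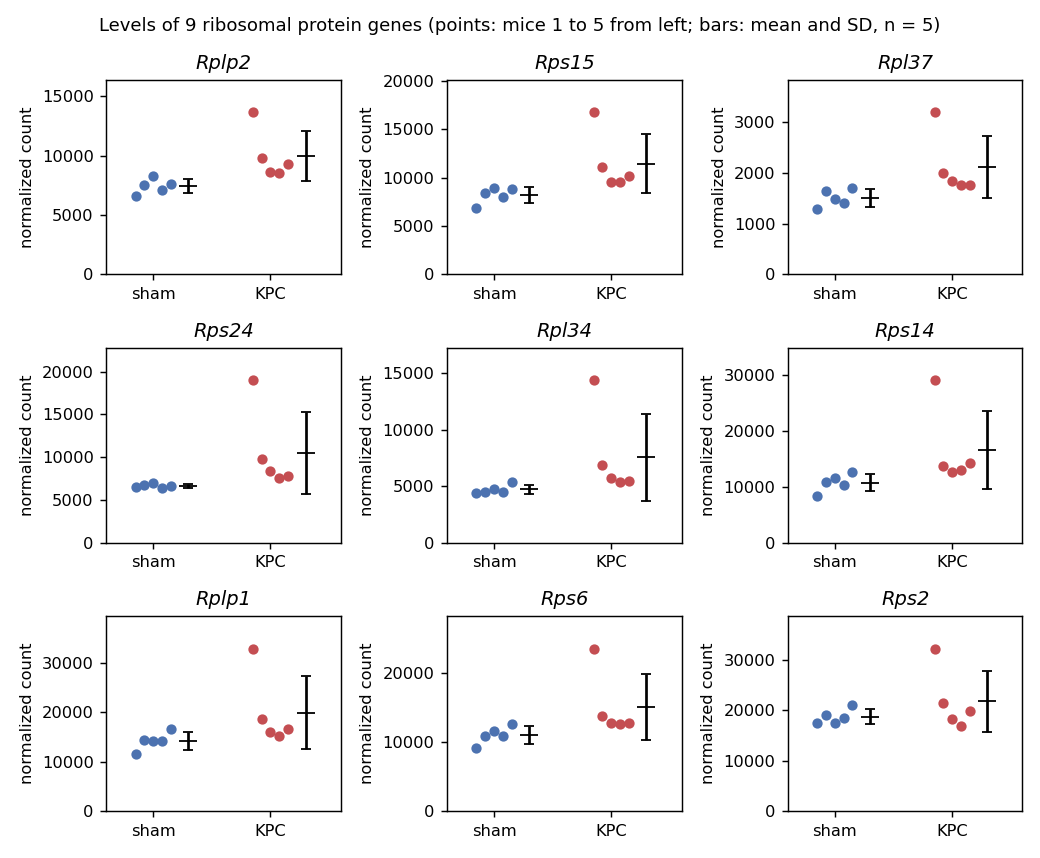
Normalized counts (y axis, from 0) of 9 members in the 5 sham and 5 KPC mice; points are mice and bars the mean and SD. In each panel KPC mouse 1 is the highest point, and the place of the other 4 KPC mice differs between panels. For Rps24 they lie at 7583 to 9750, above the highest sham mouse at 6927. For Rps2 KPC mouse 4 is the lowest point, at 16983.

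In the small subunit, all 18 members were above 0, with a median log2 difference of 0.46 and 0.28 without KPC mouse 1. Rps24, mutated in some patients with the red cell disorder Diamond-Blackfan anaemia, had 6485, 6731, 6927, 6376 and 6669 normalized counts in sham mice 1 to 5 and 18974, 9750, 8427, 7583 and 7778 in KPC mice 1 to 5. The sham mice were close together and all KPC mice were above them, on TPM as well. The log2 difference was 0.57 (SE 0.22, limma adjusted p = 0.309), and without KPC mouse 1 it was 0.33 (limma adjusted p = 0.133). Rps15, of the head of the small subunit, had 6839, 8415, 8932, 8004 and 8860 normalized counts in sham mice 1 to 5 and 16756, 11138, 9539, 9545 and 10123 in KPC mice 1 to 5. Here too the groups were apart, and the log2 difference was 0.45 (SE 0.16, limma adjusted p = 0.286).

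Rps14, whose loss of 1 copy underlies the anaemia of human 5q deletion syndrome, had 8399, 10761, 11610, 10322 and 12643 normalized counts in sham mice 1 to 5. In KPC mice 1 to 5 it had 28992, 13717, 12618, 13023 and 14207, so that KPC mouse 3 lay just under sham mouse 5. Its log2 difference was 0.55 (SE 0.22, limma adjusted p = 0.328). Rps6, the protein phosphorylated by the kinases downstream of mTORC1, had 9129, 10892, 11608, 10928 and 12540 normalized counts in sham mice 1 to 5 and 23536, 13835, 12717, 12641 and 12684 in KPC mice 1 to 5. The groups were apart by a narrow margin, between sham mouse 5 and KPC mouse 4, and the log2 difference was 0.41 (SE 0.18, limma adjusted p = 0.343). Rps13, without overlap on either scale, was at 510 ± 71.0 TPM in the sham group and 694 ± 182 TPM in the KPC group (SD, n = 5), a log2 difference of 0.45 (limma adjusted p = 0.287). On TPM its margin was narrow, between sham mouse 3 at 569.4 and KPC mouse 5 at 570.8, and near copies took 43.7% of the TPM of gene and copies together. Of the other small subunit genes named by the rule, the log2 differences were 0.54 for Rps21, 0.52 for Rps18, 0.48 for Rps20, 0.45 for Rps28 and 0.42 for Rps29, with limma adjusted p from 0.287 to 0.369. Without KPC mouse 1 they were 0.34, 0.27, 0.28, 0.28 and 0.27 in the same order, and those of Rps15, Rps14, Rps6 and Rps13 were 0.30, 0.33, 0.24 and 0.29.

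Rps2, near the channel by which mRNA enters, was the member with the smallest difference. It had 17446, 19124, 17538, 18451 and 21031 normalized counts in sham mice 1 to 5 and 32264, 21537, 18255, 16983 and 19933 in KPC mice 1 to 5. KPC mouse 4 was the lowest of all 10 mice, and the log2 difference of 0.18 (SE 0.17, limma adjusted p = 0.655) was 0.03 without KPC mouse 1. Rps25, used by some viral messages to start translation, varied most on its own account, with 514 to 585 normalized counts in sham mice and 430 to 1216 in KPC mice. Its lowest value was again in KPC mouse 4 (log2 difference 0.33, limma adjusted p = 0.537, or 0.13 without KPC mouse 1).

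**Figure D3:**
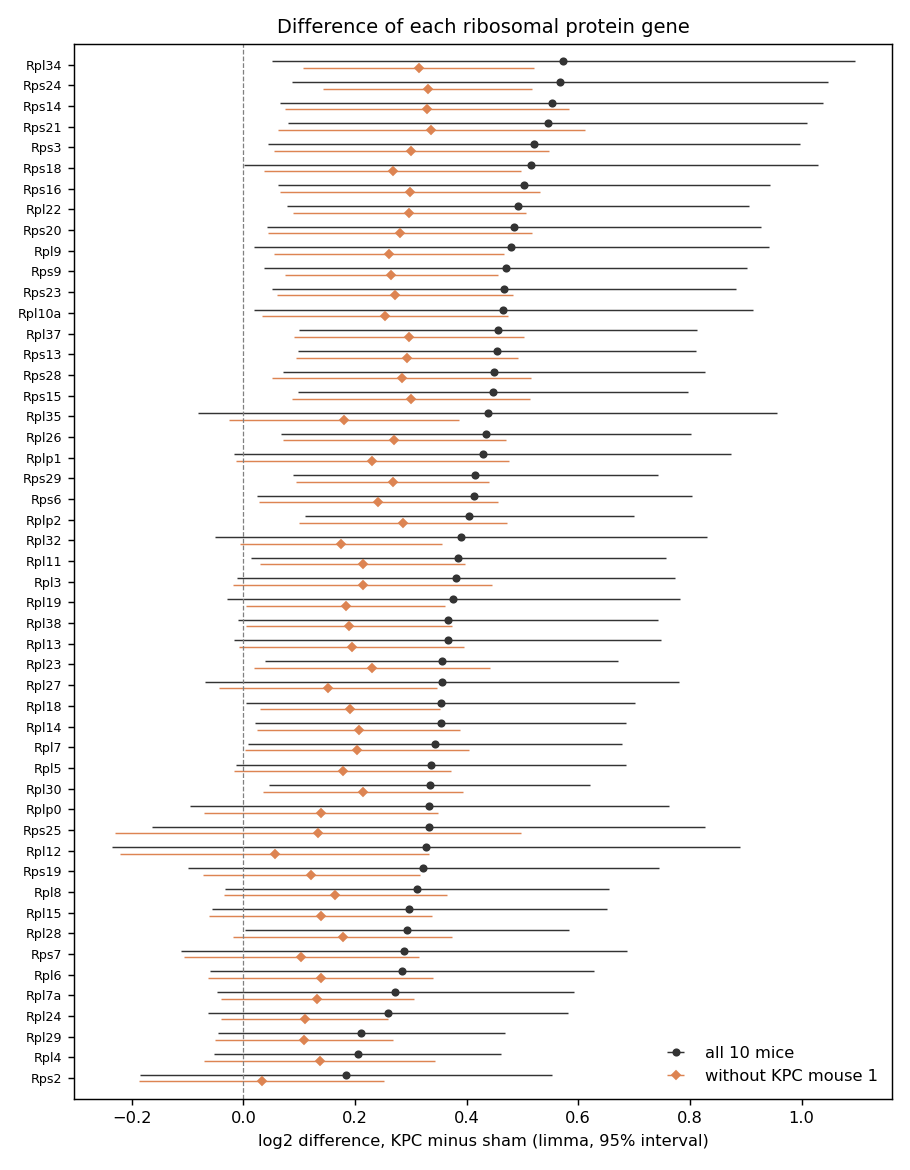
Log2 difference of normalized counts, KPC minus sham, for each of the 50 members (y axis, in order of size), with its 95% interval from limma, for all 10 mice (circles) and without KPC mouse 1 (diamonds). All 50 points of both fits are above 0, from 0.18 to 0.57 and from 0.03 to 0.34.

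Small subunit genes stood slightly higher than large subunit genes in the KPC mice. The mean log2 level of the 18 small subunit genes minus that of the 29 large subunit genes, each relative to its sham mean, was -0.04, 0.01, 0.01, -0.00 and 0.01 in sham mice 1 to 5 and 0.17, 0.10, 0.03, 0.03 and 0.06 in KPC mice 1 to 5. Any factor that scales a whole library drops out of this value. All 5 KPC mice were above all 5 sham mice, and the same was so with medians, with TPM and with near copies added. The mean difference between the groups was 0.08, or 0.06 without KPC mouse 1. The groups overlapped when only the 16 large and 11 small subunit genes with under 5% of their TPM in copies were used. There the mean difference was 0.10, with KPC mouse 1 at 0.28 and the other KPC mice at 0.03 to 0.10. They also overlapped among the 29 other cytosolic ribosomal protein genes, where the mean difference was 0.05. This was noticed in the values and was not tested.

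Many ribosomal protein genes have processed copies elsewhere in the genome, and reads that fit both are divided by an estimate. Of the 50 members, 40 shared at least 50% of the 31-base words of another gene's transcript in the GENCODE vM21 annotation, with 143 such copies in all, 15 of them over 100 TPM. For 9 members the copies took more TPM than the gene itself. Rpl5 had 28.4 TPM and its copies 888 TPM, Rpl12 had 73.9 TPM and its copies 1043 TPM, and Rps23 had 299 TPM and its copies 1409 TPM. Rps29 had 1008 TPM and its copies 2199 TPM, and Rpl37 had 158 TPM and its copies 577 TPM. The levels of these genes, and their place in the order of abundance, are therefore uncertain. Gm14303, the main copy of Rps29 (chromosome 2, 172509521 to 172509691, GRCm38), had a log2 difference of 0.47 (limma adjusted p = 0.221), close to the 0.42 of Rps29 itself. With each member summed with its copies, 50 of 50 differences were above 0, the median was 0.40, the largest shift of a member was 0.11, and 0 were called in limma, with 26 at an unadjusted p under 0.05 (background 7.56%).

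**Figure D4:**
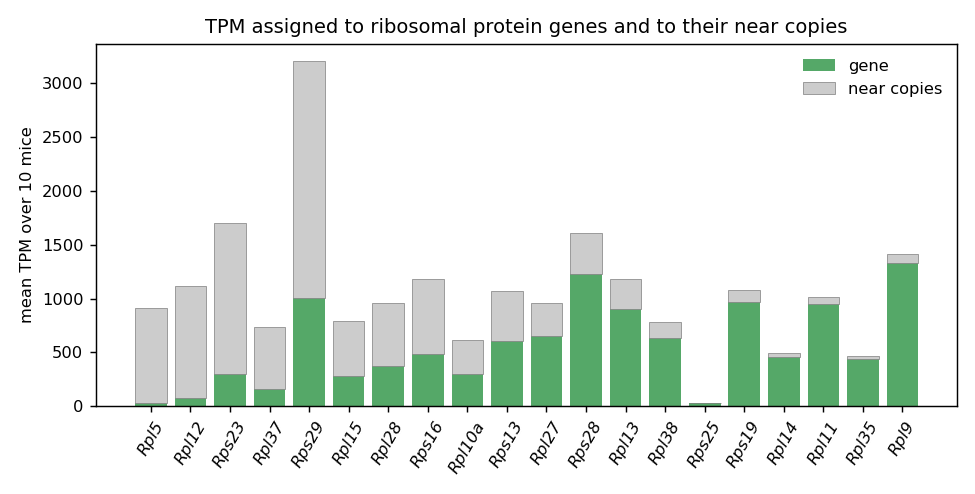
Mean TPM over the 10 mice (y axis) assigned to each of the members with at least 5% of their TPM in near copies (green) and to those copies (grey, stacked). The copies take nearly all of the summed level of Rpl5 and Rpl12 and the larger part of that of Rps23 and Rpl37.

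Other genes of the translation machinery were compared in the same fit. The 29 other cytosolic ribosomal protein genes were all above 0, with a median log2 difference of 0.42, 18 at an unadjusted p under 0.05 and 0 called by limma, and without KPC mouse 1 the median was 0.25 with 28 of 29 above 0. Among them Rpl21, of the large subunit, was at 465 ± 77.0 TPM in the sham group and 574 ± 79.2 TPM in the KPC group (SD, n = 5), a log2 difference of 0.34 (limma adjusted p = 0.286). Of 14 translation factors whose transcripts have a TOP start, 13 were above 0, with a median of 0.16, 3 at an unadjusted p under 0.05 and 0 called, and without KPC mouse 1 the median was 0.14 with 11 of 14 above 0. In this list Tpt1, the translationally controlled tumour protein, was at 2025 ± 297 TPM in the sham group and 2743 ± 701 TPM in the KPC group (SD, n = 5), a log2 difference of 0.45 without overlap (limma adjusted p = 0.311). Eef1b2, an exchange factor of elongation, differed by 0.46 (limma adjusted p = 0.334). For Tpt1 and Eef1b2 the differences without KPC mouse 1 were 0.29 and 0.26.

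The 33 other translation factors did not share this direction, with 8 above 0, a median of -0.06 and 0 called by limma (0 higher and 1 lower at an unadjusted p under 0.05). Eif2b3, a subunit of the exchange factor of initiation, was lower in every KPC mouse than in every sham mouse, at 23.0 ± 2.24 TPM in the sham group and 18.02 ± 1.64 TPM in the KPC group (SD, n = 5), a log2 difference of -0.31 (limma adjusted p = 0.191). Eif3c differed by -0.19 (limma adjusted p = 0.390), or -0.12 without KPC mouse 1. Without that mouse 7 of the 33 factors were above 0. Of 76 mitochondrial ribosomal protein genes tested, 25 were above 0, with a median of -0.06 and 0 called by limma (0 higher and 1 lower at an unadjusted p under 0.05). The 2 with the smallest p went opposite ways, Mrps6 at -0.37 (limma adjusted p = 0.299) and Mrpl19 at 0.31 (limma adjusted p = 0.390). With KPC mouse 1 left out, 16 of the 76 were above 0.

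Of 62 ribosome biogenesis factors, which process ribosomal RNA and assemble the subunits, 40 were above 0, with a median of 0.04, 1 higher and 2 lower at an unadjusted p under 0.05, and 0 called by limma. Without KPC mouse 1, 31 of 62 were above 0, with a median of -0.00. Bop1, of the large subunit assembly complex, differed by -0.29 (limma adjusted p = 0.282), and Nolc1 was listed at 0 to 1.75 TPM in the 10 mice. Of 26 genes of mTORC1 and its control of TOP messages, 8 were above 0, with a median of -0.11 and 0 called by limma (3 higher and 1 lower at an unadjusted p under 0.05), and without KPC mouse 1, 11 were above 0. In that list Ddit4, an inhibitor of mTORC1, was at 31.5, 40.1, 44.3, 39.99 and 23.7 TPM in sham mice 1 to 5 and at 54.6, 43.1, 46.6, 122 and 119 TPM in KPC mice 1 to 5. It was thus highest in KPC mice 4 and 5, not in KPC mouse 1, and had a log2 difference of 1.01 (limma adjusted p = 0.205). Myc, which activates ribosomal genes, was at 11.4 ± 1.46 TPM in the sham group and 18.6 ± 6.26 TPM in the KPC group (SD, n = 5). Its log2 difference was 0.69 (limma adjusted p = 0.221), or 0.50 without KPC mouse 1. Of 6 tested paralogs of ribosomal proteins, 5 were above 0, with 0 called by limma and 1 lower at an unadjusted p under 0.05. The exception was Rpl3l, the muscle paralog of Rpl3, at 0.749, 0.372, 2.15, 4.97 and 13.4 TPM in sham mice 1 to 5 and at 0 to 0.666 TPM in KPC mice. When KPC mouse 1 was left out, 3 of the 6 paralogs were above 0, and the median went from 0.19 to -0.02. Skeletal muscle markers summed to 108, 57, 617, 1652 and 4933 TPM in the same sham mice and to 52 to 266 TPM in KPC mice, and their part in the result for Rpl3l was not tested. Rps4l differed by 0.25 (limma adjusted p = 0.428).

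**Figure D5:**
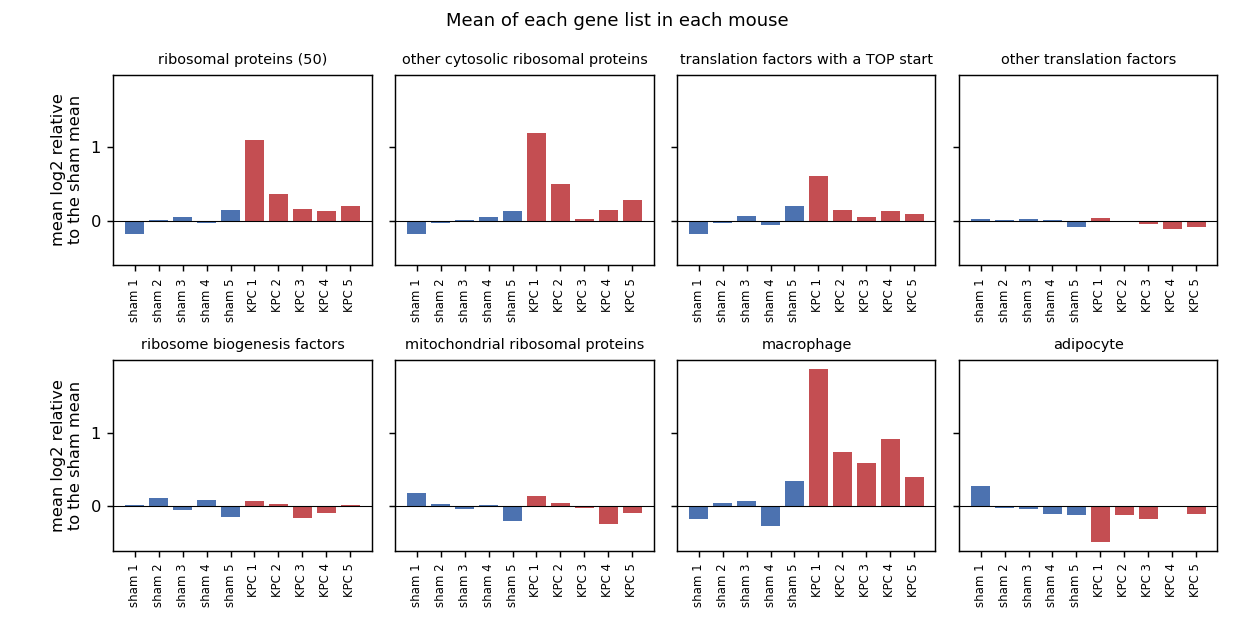
Mean log2 level of 8 gene lists relative to their sham mean (y axis) in each mouse (x axis; sham blue, KPC red). The 50 members and the 29 other cytosolic ribosomal proteins are highest in KPC mouse 1, at 1.10 and 1.19, and differ in KPC mouse 3, at 0.16 and 0.02, while the mitochondrial ribosomal proteins stay between -0.25 and 0.18.

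Markers of several cell types differed between the groups in the same direction as the members. All 12 macrophage markers were higher in KPC mice, with a median log2 difference of 0.89, and 0.70 without KPC mouse 1, and they summed to 925 to 1507 TPM after sham surgery and 1573 to 6202 TPM with tumours. Their mean log2 level was 1.87, 0.74, 0.59, 0.91 and 0.39 in KPC mice 1 to 5, so that KPC mouse 1 was again the highest, but KPC mouse 4, the lowest KPC mouse for the members, was second. T cell markers were higher in 8 of 8 (median 0.67), at 6 to 8 summed TPM in sham and 8 to 12 in KPC mice, and neutrophil markers in 7 of 7 (median 1.41), at 35 to 74 and 50 to 305 TPM. Red cell markers were higher in 6 of 6 (median 0.94), at 4748 to 12869 TPM after sham surgery and 8549 to 40713 TPM with tumours, the highest again in KPC mouse 1. Without that mouse the medians were 0.69, 0.98 and 0.55 for T cell, neutrophil and red cell markers. In sham mice 1 to 5 the mean log2 level of the macrophage markers was -0.18, 0.05, 0.06, -0.27 and 0.34. Sham mouse 5 was thus the highest sham mouse, as for the members, and sham mouse 4 the lowest. The neutrophil, red cell and T cell lists did not follow the members in every mouse. Sham mouse 1, the lowest for the members, was the highest sham mouse for neutrophil (0.80) and red cell (0.86) markers in mean log2 level. T cell markers were highest in KPC mouse 2 (1.08).

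Cell cycle genes had a mean log2 level of 2.19 in KPC mouse 1 and of -0.52 to 0.21 in the other KPC mice, and without that mouse 1 of 7 was above 0. Adipocyte markers were above 0 in 5 of 12, with a median of -0.14, or -0.03 without KPC mouse 1. Their mean was -0.49 in KPC mouse 1, -0.17 to -0.01 in the other KPC mice and 0.28 in sham mouse 1. Endothelial, fibroblast and mesothelial lists had medians of 0.01, -0.04 and 0.05, or 0.17, -0.16 and -0.12 without KPC mouse 1. Of the B cell list 3 of 6 genes were tested and 1 was above 0. After adjustment limma called 0 genes of these marker lists with all 10 mice and 2 of the 12 macrophage genes, both higher, without KPC mouse 1 (smallest adjusted p 0.0162). With all mice, 11 of 12 macrophage, 3 of 8 T cell, 2 of 7 neutrophil, 1 of 6 red cell and 1 of 7 endothelial genes were higher at an unadjusted p under 0.05. The background was 7.61% of all tested genes. At that p 2 of 12 adipocyte and 4 of 10 skeletal muscle genes were lower, where the background was 5.91%. The part of these cell types in the result for the ribosomal protein genes was not tested.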

How the data were processed

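The members were the 50 listed symbols; they and the related and marker lists were chosen with earlier results of these data known. The authors deposited normalized counts per gene, a signal handled here as such because the values are not whole reads, and a second table in TPM. The submitters' processing notes name DESeq, DESeq2 and Salmon as tools and mm10 as build; their versions, the annotation and any strand setting were not given in the sources used here. From these, log2(normalized count + 1) was fitted with limma 3.58.1 (variance trend) in R 4.3.3 for 14203 genes (mean of 10 or more), over 5 sham and 5 KPC mice, with Benjamini-Hochberg adjustment over all tested genes and a threshold of 0.05. Each sample has its own title and was taken as a separate mouse. Intervals cover 95%. Differences are on the log2(normalized count + 1) scale. Levels are TPM, and totals were 20941200 to 24449900 normalized counts per mouse. These are normalized values, so read depth and counting error are not known. Near copies were genes with at least 50% of the 31-base words of a transcript found in a member's transcripts. Alternatives changed the filter, pseudocount, unit, scaling, variance model, replicate block and mice left out, and, added after the data were seen, summed near copies and other ways of comparing the subunits. Members named were the 8 with the smallest p, the 4 with the highest and the 4 with the lowest difference, the 5 with the highest and the 5 with the lowest TPM, the stalk proteins, Rpl5, Rpl11 and Rps6; other lists gave the 2 with the smallest p, 1 of which is not reported here. Members without overlap, with the largest own spread, with many copies and with a start window shown were named after their values were seen. Small nucleolar RNA host genes, Mrpl33 and Riok2 were not analysed here.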

Additional observations from a re-analysis of the deposited data

Results flagged for a closer look

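A mouse was noted where its distance to the nearest mouse of its group of 5 took an unusually large part of the group's whole range. Chance gives this in about 1 of 20 groups, and 94 groups were examined. For the TPM of 18 of the 25 named members the mouse apart was KPC mouse 1. The part of the range was 0.722 for Rplp2, 0.763 for Rps15, 0.868 for Rpl37, 0.761 for Rps13, 0.849 for Rpl22, 0.766 for Rpl26, 0.841 for Rps14, 0.856 for Rps24 and 0.866 for Rpl34. It was 0.751 for Rps2, 0.857 for Rpl24, 0.838 for Rps18, 0.828 for Rplp1, 0.751 for Rpl12, 0.794 for Rps20, 0.873 for Rplp0, 0.810 for Rpl11 and 0.853 for Rps6. These genes move together, so they amount to 1 pattern in 1 mouse. For Rpl5 it was sham mouse 1, with a part of 0.790.

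The share of TPM taken by the 50 members had KPC mouse 1 apart by 0.834 of the range, and so had their mean log2 level by 0.761. The same mouse was apart for the translation factors with a TOP start (0.814) and for the cell cycle list (0.734). Sham mouse 1 was apart for the adipocyte list (0.769) and the neutrophil list (0.735), sham mouse 2 for the mTORC1 list (0.730) and the B cell list (0.718), and sham mouse 5 for the other translation factors (0.808).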

How the results depend on the processing

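Members called stayed at 0 of 50, and members above 0 at 50 of 50, under all 21 alternatives. The 25 named members gave 525 values under them, all above 0, from 0.03 to 0.67 on the log2 scale, with limma adjusted p from 0.133 to 0.9302. Changing only the filter on low values, the variance model or the block by description number cannot alter a difference. The named members also moved together, so these values are not separate pieces of evidence. The median difference of the members was 0.21 to 0.45 with 1 mouse left out (large subunit 0.19 to 0.41, stalk 0.23 to 0.45, small subunit 0.28 to 0.52), and the difference in the share of TPM was 0.578 to 1.55 percentage points. Genes called over the whole table, 8 in the main fit (7 higher, 1 lower), were 2 on TPM (2 higher, 0 lower), 4 on TPM without mitochondrially encoded genes (4 higher, 0 lower) and 2 to 71 with 1 mouse left out (1 to 67 higher, 1 to 4 lower). Members at an unadjusted p under 0.05, 28 in the main fit (background 7.61%), were 15 on TPM (5.92%). With 1 mouse left out they were 6 (without sham mouse 1, background 6.56%) to 36, for which no background was taken. Members without overlap, 17 in the main fit (background 2.75%), were 2 on TPM (2.11%) and 30 after quantile normalization (3.1%). With 1 mouse left out they were 17 (without KPC mouse 1, background 3.1%) to 37 (without sham mouse 5, background 4.49%). The cause of these shifts was not tested.

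The replicate numbers were not taken to pair the mice. Same-numbered mice correlated at 0.068, 0.191, 0.005, 0.020 and 0.171 in their deviations from the group means. No correlation was computed for differently numbered mice, so these values cannot decide whether the numbers pair the mice. With the number in the description as a replicate block, 4 genes were called (3 higher, 1 lower) and 8 members had an unadjusted p under 0.05. With the first number of the title as the block, 4 genes were called (3 higher, 1 lower) and 19 members had an unadjusted p under 0.05. The share of all tested genes at that p was not taken for either block, so these member counts have no background.

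Each group has 5 mice and KPC mouse 1 carries a large part of the members' difference. Counting error was not separated from the spread between mice, since the values are not read counts.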
